A study of Mus musculus with 18 samples.

Results

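The 36 genes described here encode the lysosome and its signalling platform: 16 genes of the proton pump (V-ATPase), 2 lysosomal membrane glycoproteins, 5 lysosomal hydrolases and cofactors, 3 mucolipin channels, 4 MiT-TFE transcription factors, 3 Rag GTPases and 3 genes of the folliculin complex. They were taken by symbol from a table of 30530 genes, in which all 36 were found. All 36 also passed the filter on low counts that left 12741 genes for testing.

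RNA-seq of polyadenylated RNA was done on bone-marrow-derived macrophages (BMDM), phagocytic cells differentiated in culture from marrow. C57BL/6 (B6) cells received 25-hydroxycholesterol (25HC) at 5 µM for 18 hours and then Pam3CSK4 (PAM3) at 300 ng/mL, or the same 25HC without PAM3 (at rest), and B6 cells left without 25HC were studied with and without PAM3. Cells of Ch25h-/- mice, which lack an enzyme that makes 25HC from cholesterol, received no 25HC and were studied with PAM3 and at rest. PAM3 is a synthetic bacterial lipopeptide that Toll-like receptors sense, and the study asked how 25HC changes the macrophage transcriptome before and after that stimulus. Each of the 6 groups held 3 libraries, numbered 1 to 3 by mouse, and the same number within a genotype was taken as the same animal. The labels give neither the sex nor the age of the mice, nor a vehicle for the cells without 25HC. They give a stimulation time of 18, without a unit, for PAM3 and 0 for rest, so a difference in culture time cannot be told apart from PAM3 itself.

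Lysosomes are acidified by the V-ATPase, a rotary pump whose V1 sector hydrolyses ATP in the cytosol and whose V0 sector carries protons across the membrane. The low pH activates the hydrolases that break down phagocytosed and endocytosed material, a central task of macrophages. The same membrane is where nutrient state is read: Rag GTPase heterodimers, anchored by Ragulator, bring mTORC1 to the lysosome, and folliculin with FNIP1 or FNIP2 acts on RagC and RagD. TFEB, TFE3, MITF and TFEC (the MiT-TFE family) bind E-box elements upstream of many lysosomal genes, and phosphorylation by mTORC1 keeps TFEB and TFE3 out of the nucleus. RNA levels do not show that phosphorylation or the location of the proteins.

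The elements that these factors bind include ones with CACGTG. Printed here are 4 windows of genes that were higher with 25HC under PAM3. They are the 3 that hold CACGTG and that of Rragd, as 1 of the 7 that do not. RefSeq promoter windows (GRCm38.p6, 250 bases before to 50 bases after a start site) matched 31 of the 36 members, with 39 windows in all. Atp6v0d2, Atp6v1b2, Atp6v1c1, Atp6v1g1 and Atp6v1h had none. In the lines below, which run 5′ to 3′ along the gene's strand, capitals mark CACGTG, TCACGTGA or TCATGTG, searched on both strands. Every TCACGTGA also contains CACGTG. The Gla window is chrX:134600956-134601255, minus strand, the Fnip1 window chr11:54437929-54438228, plus strand, the Mcoln2 window chr3:146149924-146150223, plus strand, and the Rragd window chr4:32982748-32983047, plus strand.
Gla: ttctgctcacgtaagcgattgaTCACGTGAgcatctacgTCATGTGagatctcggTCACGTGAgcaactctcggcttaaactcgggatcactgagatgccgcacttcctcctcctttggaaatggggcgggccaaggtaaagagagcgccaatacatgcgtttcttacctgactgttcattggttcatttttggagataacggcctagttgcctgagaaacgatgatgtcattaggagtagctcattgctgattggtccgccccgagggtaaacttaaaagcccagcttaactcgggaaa
Fnip1: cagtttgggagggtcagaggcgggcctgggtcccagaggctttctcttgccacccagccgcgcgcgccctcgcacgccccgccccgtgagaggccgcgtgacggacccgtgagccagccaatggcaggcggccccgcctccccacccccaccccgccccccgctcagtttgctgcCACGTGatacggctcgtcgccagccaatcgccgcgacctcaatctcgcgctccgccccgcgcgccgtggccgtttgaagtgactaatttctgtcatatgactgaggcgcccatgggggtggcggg
Mcoln2: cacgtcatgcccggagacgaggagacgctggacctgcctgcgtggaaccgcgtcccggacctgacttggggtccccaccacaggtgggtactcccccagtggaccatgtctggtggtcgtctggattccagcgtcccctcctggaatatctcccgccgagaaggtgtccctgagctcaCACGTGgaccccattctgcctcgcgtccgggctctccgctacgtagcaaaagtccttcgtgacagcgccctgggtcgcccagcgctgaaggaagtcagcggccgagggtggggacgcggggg
Rragd: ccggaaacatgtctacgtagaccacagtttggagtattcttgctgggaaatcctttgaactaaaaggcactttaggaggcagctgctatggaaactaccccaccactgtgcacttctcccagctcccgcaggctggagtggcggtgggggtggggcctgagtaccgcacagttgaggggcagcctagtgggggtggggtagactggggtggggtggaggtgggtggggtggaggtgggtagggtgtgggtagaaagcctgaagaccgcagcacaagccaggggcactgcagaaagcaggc
Gla, for α-galactosidase A, held TCACGTGA at 2 places and TCATGTG once. Fnip1 and Mcoln2 held CACGTG once each, at positions -75 and -72 from the start site. CACGTG was found in 10 of the 31 members with a window (32.3%), against 8.09% of 27025 genes: Atp6v0b, Atp6v0d1, Atp6v0e, Atp6v1a, Lamp1, Gla, Mcoln1, Mcoln2, Rragc and Fnip1. The longer TCACGTGA was found in 5 members (16.1%), against 1.12% of genes. TCATGTG was found in 3 members (9.68%), against 4.31% of genes. A longer palindrome, TCACGTGA with a G before it and a C after it, was also searched. It was found in 0 of the 31 members with a window, against 0.37% of genes. At so low a share, 0 of 31 members does not show a lack of it. Of the 10 members with a window that were higher with 25HC under PAM3, 3 held CACGTG, and Atp6ap2, Mcoln3, Tfec, Mitf, Rraga, Rragd and Fnip2 did not. Of the 5 that were lower, 1 held it, Atp6v0e. The share among the higher genes (30%) was thus near that of all members. A match describes the letters of the window and not a bound site.

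Total counts ran from 14040513 to 150440297 per library, and replicate libraries of a group differed by more than sampling noise, so all 18 were kept as separate samples. The first principal component (62.9% of the variance) separated PAM3 from rest, the second (17.9%) followed 25HC, and on the third (7.93%) replicate 2 of each of the 3 groups at rest, the 25HC-treated one included, stood apart from replicates 1 and 3. Ch25h had 0 to 2 counts in each Ch25h-/- library and 76 to 1031 counts in each B6 library. The 8 macrophage markers were all detected in every group, with a summed level of 20484 to 59409 CPM (counts scaled to the library total with TMM factors, the unit used below). With 25HC, 5 of the 8 were lower and 1 was higher in each state, by the test and threshold given below. Over all tested genes, 11.4% were lower and 14.8% higher at rest, and 23.6% and 21.5% under PAM3. The sum under PAM3 was 30632, 37780 and 32795 CPM with 25HC, against 45788, 53184 and 59409 CPM in untreated B6 cells. At rest it was 20484 to 22163 CPM with 25HC and 24970 to 31905 CPM without it. The part of this difference in the results below was not tested. The summed level of 8 neutrophil markers was 17.4, 89.1 and 29.9 CPM in Ch25h-/- cells at rest, against 5.41, 5.92 and 7.95 CPM in B6 cells at rest.

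Under PAM3, cells with 25HC had more RNA of several regulators, of 2 mucolipin channels, of 2 of the 16 pump genes and of the enzyme Gla, and less of 3 other pump genes, the enzyme Hexa and the cofactor Grn. Of the 36 members, 16 changed with 25HC under PAM3, against a background of 45.1% of all tested genes. The 11 that were higher (background 21.5%) were Atp6v0d2, Atp6ap2, Gla, Mcoln2, Mcoln3, Tfec, Mitf, Rraga, Rragd, Fnip1 and Fnip2, and the 5 that were lower (background 23.6%) were Atp6v0e, Atp6v1d, Atp6v1f, Hexa and Grn. A gene counts as changed at an adjusted p below 0.05 in edgeR's quasi-likelihood test with Benjamini-Hochberg adjustment over all 12741 genes. At rest 12 members changed with 25HC, against a background of 26.2%: Atp6v0c, Atp6v1h and Rraga were higher (3, background 14.8%), and Atp6v1a, Lamp1, Lamp2, Tfec, Rragc, Rragd, Flcn, Fnip1 and Fnip2 were lower (9, background 11.4%). Rraga was thus higher with 25HC in both states, while Tfec, Rragd, Fnip1 and Fnip2 were called lower at rest and higher under PAM3. Of these last 4, only Fnip2 kept its call at rest in all 14 alternative settings. Under PAM3 the calls of Tfec, Rragd and Fnip1 were kept in all 14, and that of Fnip2 was not. The median log2 fold change of the 36 members was -0.18 at rest and -0.11 under PAM3, against -0.01 and -0.04 over all tested genes.

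The counts moved with the libraries used. With 25HC at rest the count was 3 without replicate 1 of the 25HC-treated group, 4 without its replicate 3, 6 without replicate 3 of the untreated group and 17 without replicate 2 of every group. With only the groups compared in the fit it was 7. With 25HC under PAM3 the count was 13 to 17 without one library and 22 without replicate 2 of every group. Only Rraga and Fnip2 remained called at rest in all 14 alternative settings, while under PAM3 Atp6v0d2, Atp6v1d, Hexa, Gla, Grn, Mcoln2, Mcoln3, Tfec, Mitf, Rraga, Rragd and Fnip1 did, 12 of the 16.

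PAM3 itself lowered more of these genes than it raised in untreated B6 and Ch25h-/- cells. In untreated B6 cells 24 members changed (background 62.1%). Of these, 17 were lower (47.2%, background 30.8%) and 7 higher (19.4%, background 31.3%). In Ch25h-/- cells 25 changed (background 62%), 19 lower (52.8%, background 32.1%) and 6 higher (16.7%, background 29.9%). In 25HC-treated cells 23 changed (background 58.9%), 13 lower (36.1%, background 30.4%) and 10 higher (27.8%, background 28.5%). Both shares were thus near the background in 25HC-treated cells. In bulk RNA, fewer cells of a type and less RNA per cell cannot be told apart.

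**Figure D1:**
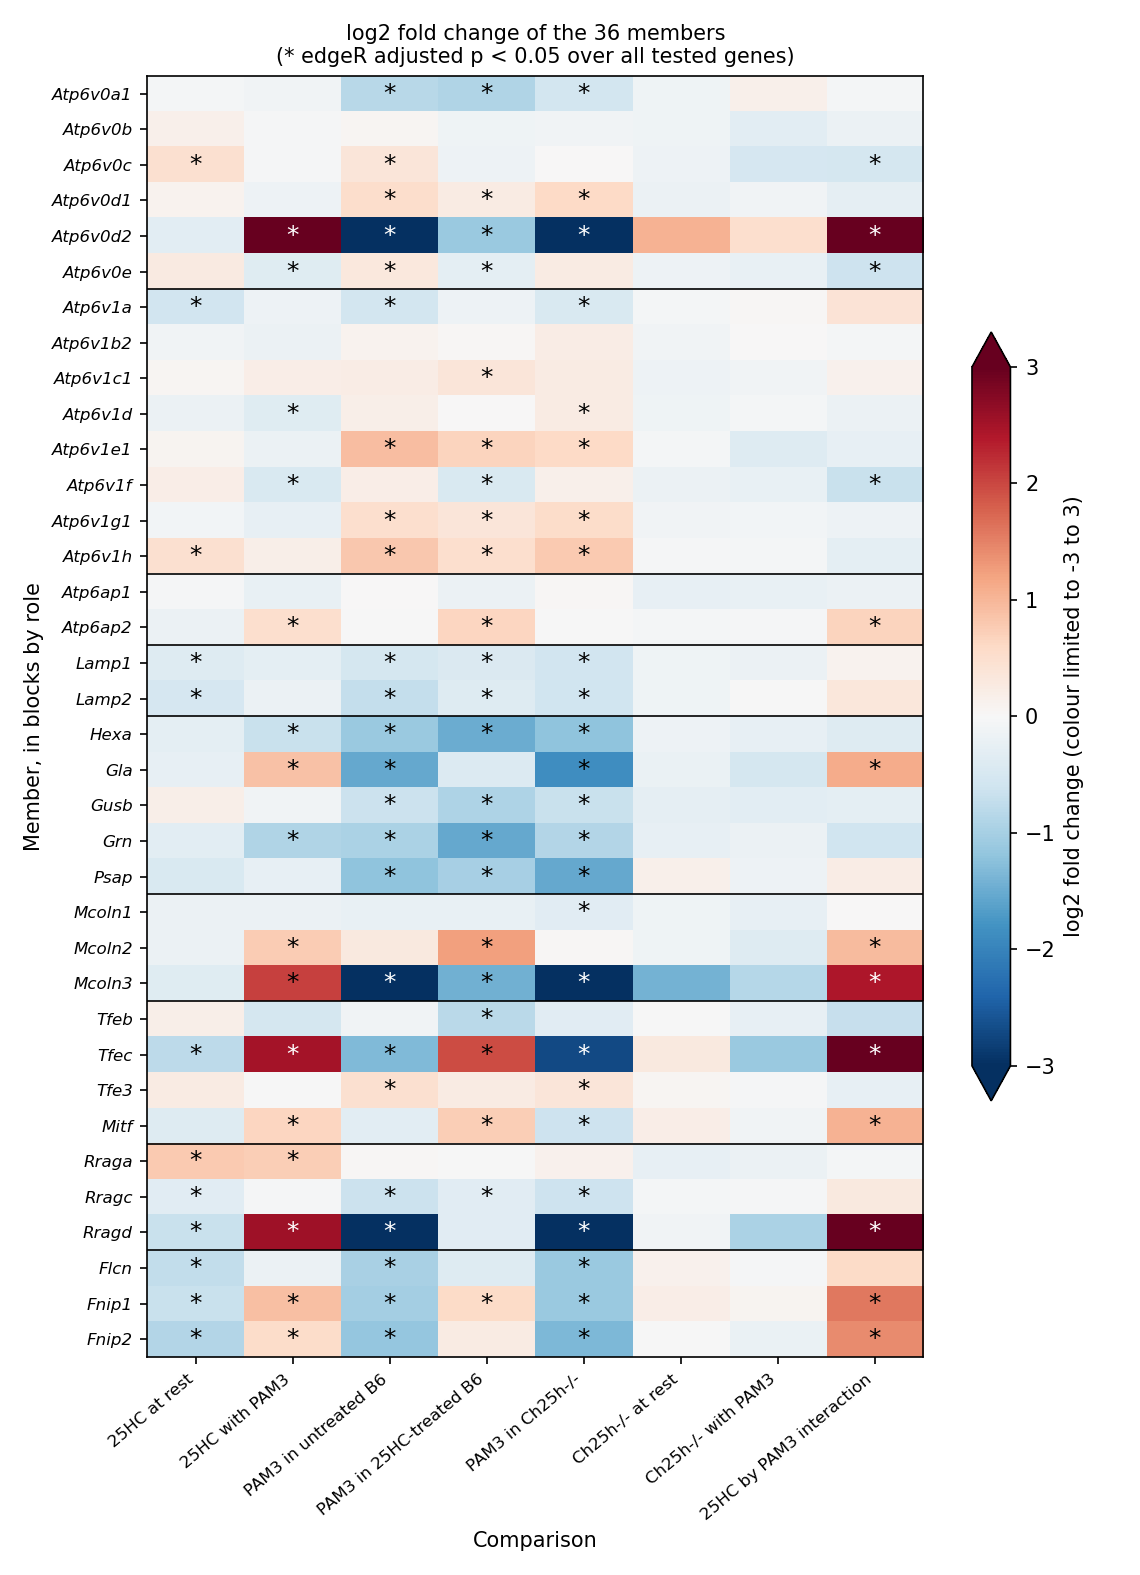
Log2 fold changes of the 36 members (lines, in blocks by role) in 7 comparisons between groups and in the 25HC by PAM3 interaction (columns), with stars where the adjusted p is below 0.05. Atp6v0d2, Mcoln3, Tfec, Rragd, Fnip1 and Fnip2 are red with 25HC under PAM3 and blue with PAM3 in untreated and Ch25h-/- cells, and the 2 columns of Ch25h-/- against B6 hold no star.

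Per length of exon, the members covered a wide range in untreated B6 cells at rest. Psap averaged 8330.4 ± 1624 TPM (length-scaled transcript abundance, SD, n = 3), Grn 3952 ± 457 TPM, Lamp1 2939.95 ± 147 TPM and Hexa 2559.95 ± 362 TPM. The core pump genes ran from 27.2 ± 5.6 TPM for Atp6v1h to 509 ± 57 TPM for Atp6v1a. At the low end stood Tfec at 14.8 ± 2.0 TPM, Rragd at 13.8 ± 1.8 TPM, which do not differ beyond their spread, and Mcoln3 at 3.04 ± 0.41 TPM. Atp6v0d2 stood between these, at 67.4 ± 16.1 TPM. Lengths are of all annotated exons merged, which lowers the TPM of genes with long rare exons.

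Among the pump genes, Atp6v0d2 was the one that moved by far the most. It encodes the d2 form of the V0 subunit d, a form known for its abundance in osteoclasts and macrophages (chromosome 4, 19876841 to 19922605, minus strand, GRCm38). Under PAM3 its level was 18.1, 17.2 and 21.1 CPM with 25HC, against 2.25, 1.81 and 2.53 CPM without it. Its level at rest was 32.0, 51.9 and 38.3 CPM with 25HC and 36.3, 58.6 and 56.5 CPM without it. The Ch25h-/- cells had 3.05, 3.88 and 2.28 CPM with PAM3 and 137, 125 and 49.5 CPM at rest. Every library with PAM3 was below every library at rest, and the 25HC-treated libraries with PAM3 lay between the others with PAM3 and those at rest. With 25HC under PAM3 the difference was a log2 fold change of 3.12 ± 0.34 (adjusted p = 7.15e-06). PAM3 lowered the gene with a log2 fold change of -4.54 ± 0.36 (adjusted p = 9.36e-08) in untreated B6 cells, a log2 fold change of -5.07 ± 0.37 (adjusted p = 5.23e-08) in Ch25h-/- cells and a log2 fold change of -1.12 ± 0.31 (adjusted p = 0.00582) in 25HC-treated cells. Without replicate 2 of every group the last of these was -0.85, with an adjusted p of 0.0656. At rest the difference with 25HC was a log2 fold change of -0.31 ± 0.30 (adjusted p = 0.475), within the spread.

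Its paralog Atp6v0d1, the widely expressed d subunit, moved the other way with PAM3. Its log2 fold change was 0.52 in untreated B6 cells and 0.59 in Ch25h-/- cells, both changed, and -0.16 (adjusted p = 0.181) with 25HC under PAM3. In 25HC-treated cells it was 0.25 with PAM3, with an adjusted p of 0.0351, and 0.0551 with the animal as a block. Of the summed TPM of the pair, Atp6v0d2 took 6.11% ± 0.91 in 25HC-treated cells with PAM3 and 0.672% ± 0.097 in untreated cells with PAM3 (SD, n = 3 each). The share was 14.3% ± 3.3 with 25HC and 18.1% ± 4.3 without it at rest. In Ch25h-/- cells it was 1.00% ± 0.24 with PAM3 and 33.1% ± 12.5 at rest.

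Markers of osteoclasts, which also use Atp6v0d2, were measured beside this. The summed level of 8 osteoclast markers was 49.1, 61.1 and 49.5 CPM in 25HC-treated cells with PAM3 and 64.7, 90.3 and 82.0 CPM in untreated cells with PAM3. Nfatc1 made up most of this sum. At rest the sum was 89.4 to 120.2 CPM with 25HC and 121.0 to 157.1 CPM without it. Of these markers Calcr had at most 0.409 CPM and Oscar at most 0.119 CPM in any library. The 5 markers that could be tested did not move together with 25HC under PAM3: Dcstamp and Ctsk were higher, Acp5 was lower, and Itgb3 and Nfatc1 did not pass the test. Dcstamp was at 1.14, 0.854 and 1.595 CPM with 25HC under PAM3, against 0.179, 0.107 and 0.0844 CPM without 25HC, and Acp5 at 7.88, 18.95 and 8.97 CPM, against 22.9, 34.2 and 34.1 CPM. Ctsk was at 2.02, 1.53 and 1.57 CPM with 25HC under PAM3, against 0.690, 0.455 and 0.703 CPM without 25HC, and Itgb3 at 0.614, 0.610 and 0.486 CPM, against 0.204, 0.462 and 0.253 CPM. The part of such cells in the Atp6v0d2 result was not tested.

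In the rest of the V0 sector, 25HC changed Atp6v0c at rest and Atp6v0e under PAM3, and PAM3 lowered Atp6v0a1 and raised Atp6v0c and Atp6v0e in untreated B6 cells. The last 2 log2 fold changes were 0.36 and 0.32, and each call was lost in 5 of 14 alternatives. With 25HC at rest Atp6v0c, for the proteolipid c that forms the rotor ring, was 342, 274 and 275 CPM, against 206, 240.5 and 189.8 CPM, with a log2 fold change of 0.49 ± 0.13 (adjusted p = 0.0120). It has 2 named pseudogenes that could take or give reads, and its call was lost without replicate 1 of the 25HC-treated group (adjusted p = 0.0842). Under PAM3 its log2 fold change with 25HC was -0.03. Atp6v0e, a small V0 subunit, was lower with 25HC under PAM3 with a log2 fold change of -0.37 ± 0.12 (adjusted p = 0.0223), a call lost without replicate 3 of the untreated group with PAM3 (adjusted p = 0.121). Atp6v0a1, the a1 subunit through which protons pass, fell with PAM3 by 0.84 on the log2 scale in untreated B6 cells, 0.56 in Ch25h-/- cells and 0.90 in 25HC-treated cells. Atp6v0b passed the threshold in 0 of the 9 comparisons by this test.

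In the V1 sector PAM3 moved the subunits in both directions. Atp6v1e1 and Atp6v1g1, both of the peripheral stalk, and Atp6v1h, the regulatory H subunit, rose in untreated B6 cells, with log2 fold changes of 0.93, 0.52 and 0.80. They also rose in Ch25h-/- cells and in 25HC-treated cells, where the call of Atp6v1g1 was lost when any one of the 6 libraries compared was left out (adjusted p = 0.0539 to 0.0807). Atp6v1a, the catalytic A subunit, went the other way, at 649, 552 and 525 CPM with PAM3 and 859, 769 and 908 CPM at rest in untreated B6 cells, with a log2 fold change of -0.56 ± 0.17 (adjusted p = 0.0105). With 25HC at rest Atp6v1a was 511, 675 and 518 CPM, against 859, 769 and 908 CPM without it, with a log2 fold change of -0.57 ± 0.17 (adjusted p = 0.0232). That call was lost without replicate 1 of the 25HC-treated group (adjusted p = 0.104), among other single libraries. Atp6v1h was higher with 25HC at rest with a log2 fold change of 0.47 ± 0.15 (adjusted p = 0.0292). The Atp6v1h call was lost without a filter on low counts (adjusted p = 0.0648) and with only the groups compared in the fit (adjusted p = 0.0813). Leaving out replicate 1 of the 25HC-treated group (adjusted p = 0.129), among other single libraries, also lost it. Under PAM3 the 25HC-treated cells had lower Atp6v1d and Atp6v1f, subunits of the central stalk, with log2 fold changes of -0.36 and -0.46. Atp6v1c1, for the C subunit that links stalk and membrane sector, rose with PAM3 in 25HC-treated cells with a log2 fold change of 0.36 ± 0.14 (adjusted p = 0.0402), and passed the test in no other comparison. That call was also lost when any one of these 6 libraries was left out (adjusted p = 0.0603 to 0.109). Atp6v1b2, the B2 subunit of the catalytic ring, changed in 0 of the 9 comparisons. Summed over the 8 V1 genes, the level was 1889 ± 75 CPM with 25HC and PAM3, 2081 ± 111 CPM with PAM3 alone, 1747 ± 82 CPM with 25HC at rest and 2023 ± 107 CPM in untreated cells at rest (SD, n = 3 each).

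Of the accessory subunits, Atp6ap2, known as the prorenin receptor, was 432, 365 and 401 CPM with 25HC under PAM3, against 330.0, 229 and 290.2 CPM without 25HC. The difference was a log2 fold change of 0.50 ± 0.16 (adjusted p = 0.0186), and it was lost without replicate 2 of the untreated group (adjusted p = 0.0987). Atp6ap1 changed in 0 of the 9 comparisons.

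**Figure D2:**
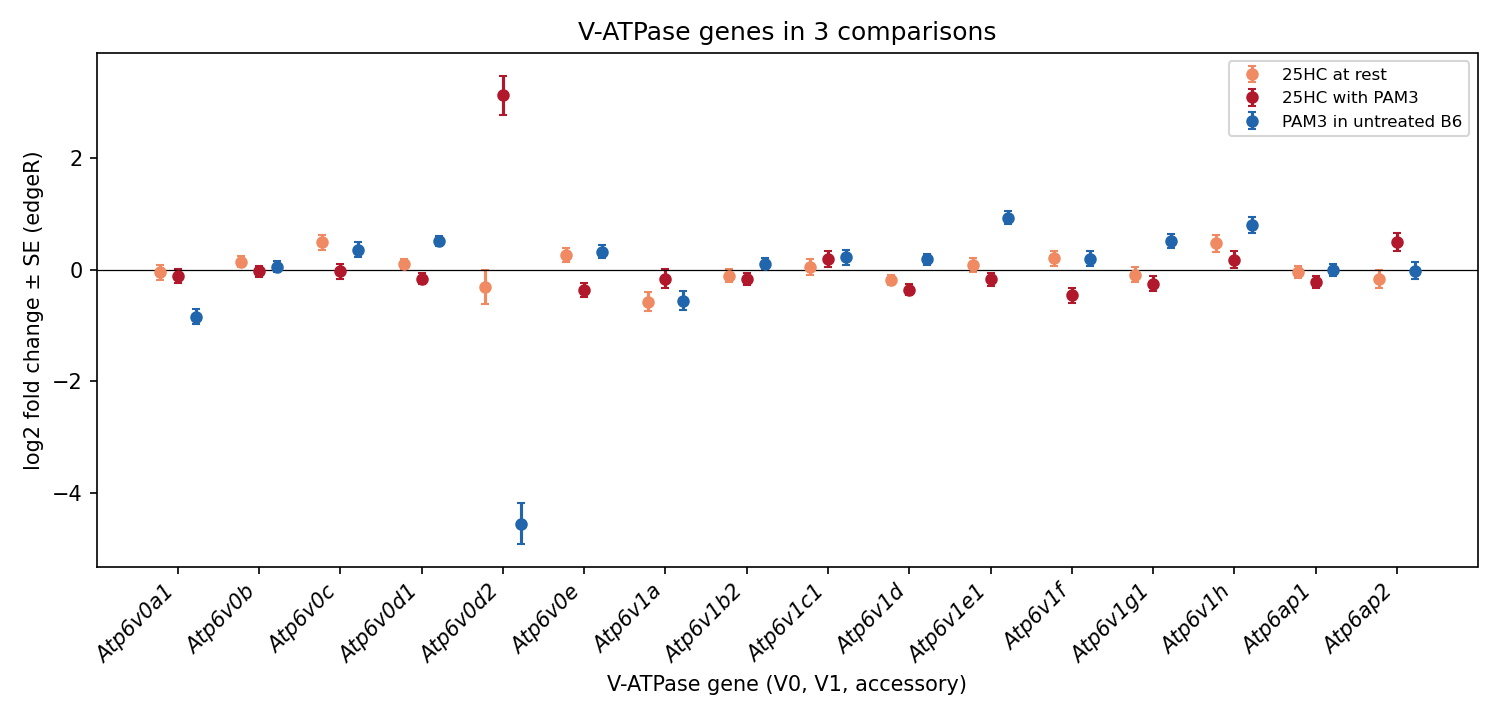
Log2 fold change with its standard error (vertical axis) of the 16 V-ATPase genes (horizontal axis) with 25HC at rest, with 25HC under PAM3 and with PAM3 in untreated B6 cells. Atp6v0d2 reaches 3.12 with 25HC under PAM3 and -4.54 with PAM3, while the points of the other 15 genes stay within 1 log2 unit of 0.

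The membrane glycoproteins Lamp1 and Lamp2, which line the inner face of the lysosomal membrane, fell with PAM3 and were lower with 25HC at rest. In untreated B6 cells Lamp2 was 836, 556 and 705 CPM with PAM3 and 1236, 1010.2 and 1214 CPM at rest, with a log2 fold change of -0.72 ± 0.15 (adjusted p = 0.000662). With 25HC at rest it was 822, 871 and 751 CPM, below all 3 untreated libraries, with a log2 fold change of -0.50 ± 0.15 (adjusted p = 0.0233). That call of Lamp2 was lost without replicate 3 of the 25HC-treated group (adjusted p = 0.101), among other single libraries. Lamp1 had log2 fold changes of -0.52 with PAM3 and -0.38 with 25HC at rest. The second of these had an adjusted p of 0.0381, 0.0518 with the animal as a block and 0.166 without replicate 3 of the 25HC-treated group. Lamp1 shares 9.31% of its exon bases with a gene on the opposite strand, and the sources used here do not give the strand setting of the counts.

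All 5 hydrolases and cofactors fell with PAM3 in untreated B6 cells, and also in Ch25h-/- cells. Psap, the precursor of the saposins that help degrade sphingolipids, was 2577, 2421 and 3164 CPM with PAM3 and 5339, 7940.2 and 5683 CPM at rest in untreated B6 cells, with a log2 fold change of -1.22 ± 0.22 (adjusted p = 0.000177). In Ch25h-/- cells it was 2427, 2501 and 2392 CPM with PAM3 and 5794, 9839 and 5492 CPM at rest, with a log2 fold change of -1.53 ± 0.22 (adjusted p = 2.69e-05). Replicate 2 was the highest library at rest in both genotypes. Gusb, for β-glucuronidase, fell with a log2 fold change of -0.63 in untreated cells and -0.92 in 25HC-treated cells.

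With 25HC under PAM3 these 5 genes split: Gla rose, Grn and Hexa fell further, and Gusb and Psap did not pass the test. Gla was 114, 98.3 and 106 CPM with 25HC and PAM3, against 61.4, 43.9 and 69.3 CPM with PAM3 alone, with a log2 fold change of 0.87 ± 0.21 (adjusted p = 0.00337). At rest Gla was 129.9, 167 and 129 CPM with 25HC and 170.2, 172 and 166 CPM without it, with a log2 fold change of -0.26 ± 0.21 (adjusted p = 0.383). The Ch25h-/- cells had 52.3, 26.0 and 43.1 CPM with PAM3 and 170.4, 130.1 and 139 CPM at rest. PAM3 lowered Gla with a log2 fold change of -1.54 ± 0.21 (adjusted p = 1.78e-05) in untreated B6 cells and a log2 fold change of -1.86 ± 0.22 (adjusted p = 4.06e-06) in Ch25h-/- cells. In 25HC-treated cells the difference was a log2 fold change of -0.42 ± 0.21 (adjusted p = 0.0957), and 0.0483 was the adjusted p with the animal as a block.

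Grn encodes progranulin, a cofactor of lysosomal enzymes. It was 1001, 1238 and 939 CPM with 25HC and PAM3, against 1793, 1884 and 2258 CPM with PAM3 alone, with a log2 fold change of -0.90 ± 0.15 (adjusted p = 0.000253). The groups did not overlap. Without PAM3 it was 2985, 3532 and 2629 CPM with 25HC and 3725, 4376 and 3278 CPM without it, and PAM3 lowered it in 25HC-treated cells with a log2 fold change of -1.53 ± 0.16 (adjusted p = 1.26e-06). Hexa, the α subunit of β-hexosaminidase A, was 384, 466 and 381 CPM with 25HC and PAM3, against 593, 643 and 725 CPM with PAM3 alone, with a log2 fold change of -0.67 ± 0.15 (adjusted p = 0.00165). At rest it was 1090.0, 1344 and 1025 CPM with 25HC and 1269, 1690.1 and 1276 CPM without it, and its fall with PAM3 in 25HC-treated cells was a log2 fold change of -1.49 ± 0.15 (adjusted p = 9.95e-07). Hexa shares 12.8% of its exon bases with Tmem202 on the opposite strand.

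The mucolipins are cation channels of endosomes and lysosomes, and 2 of the 3 rose with 25HC under PAM3. Mcoln2, found mainly in immune cells, was 146, 98.6 and 113 CPM with 25HC and PAM3, against 90.6, 49.6 and 70.8 CPM with PAM3 alone, with a log2 fold change of 0.76 ± 0.19 (adjusted p = 0.00394). Its level at rest was 59.7, 49.4 and 43.6 CPM with 25HC and 59.8, 59.3 and 53.6 CPM without it, with a log2 fold change of -0.18 ± 0.19 (adjusted p = 0.509). PAM3 raised Mcoln2 in 25HC-treated cells with a log2 fold change of 1.23 ± 0.19 (adjusted p = 5.94e-05), and in untreated cells the difference was a log2 fold change of 0.29 ± 0.19 (adjusted p = 0.196). Without replicate 2 of every group the difference in untreated cells was 0.51, with an adjusted p of 0.0247, and over all alternatives the adjusted p ran from 0.0229 to 0.761. Without replicate 1 of the untreated group with PAM3 it was 0.068, and without its replicate 2 it was 0.49.

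Mcoln3 was rare in every group. It was 0.720, 0.831 and 0.925 CPM with 25HC and PAM3, against 0.281, 0.149 and 0.197 CPM with PAM3 alone, which rests on 41, 109 and 40 counts against 11, 21 and 7. Without PAM3 it was 1.98, 2.66 and 2.12 CPM with 25HC and 2.44, 3.29 and 2.99 CPM without it. The difference with 25HC was a log2 fold change of 2.05 ± 0.33 (adjusted p = 0.000149) under PAM3 and a log2 fold change of -0.37 ± 0.27 (adjusted p = 0.334) at rest. PAM3 lowered it with a log2 fold change of -3.87 ± 0.33 (adjusted p = 1.73e-07) in untreated B6 cells and a log2 fold change of -1.45 ± 0.29 (adjusted p = 0.000481) in 25HC-treated cells. In Ch25h-/- cells it was 0.0955, 0.0436 and 0.186 CPM with PAM3, from 2, 1 and 4 counts, and 1.58, 0.823 and 0.834 CPM at rest, with a log2 fold change of -3.32 ± 0.45 (adjusted p = 1.52e-05). Mcoln1, the broadly expressed lysosomal calcium channel TRPML1, was 43.6, 45.3 and 41.4 CPM with 25HC and PAM3, 46.9, 48.5 and 51.1 CPM with PAM3 alone, 47.9, 56.2 and 47.4 CPM with 25HC at rest and 53.1, 64.5 and 52.7 CPM in untreated cells at rest. Its differences were a log2 fold change of -0.17 ± 0.11 (adjusted p = 0.211) with 25HC under PAM3, a log2 fold change of -0.17 ± 0.11 (adjusted p = 0.254) with 25HC at rest and a log2 fold change of -0.22 ± 0.11 (adjusted p = 0.0868) with PAM3 in untreated cells. In Ch25h-/- cells it fell with PAM3, with a log2 fold change of -0.33 ± 0.11 (adjusted p = 0.0138), a call lost without replicate 2 of the Ch25h-/- cells with PAM3 (adjusted p = 0.0665).

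Of the 4 MiT-TFE factors, Tfec and Mitf rose with 25HC under PAM3, while Tfeb and Tfe3 did not pass the test. Tfec, a factor largely restricted to macrophages (chromosome 6, 16833373 to 16898441, minus strand, GRCm38), was 60.9, 43.7 and 51.3 CPM with 25HC and PAM3, against 14.02, 5.18 and 8.52 CPM with PAM3 alone. At rest it was 14.6, 14.2 and 11.1 CPM with 25HC and 19.2, 25.8 and 23.7 CPM without it. The Ch25h-/- cells had 4.82, 3.48 and 4.41 CPM with PAM3 and 25.9, 28.6 and 29.1 CPM at rest. The 25HC-treated libraries were the highest of all with PAM3 and the lowest of all at rest. With 25HC the difference was a log2 fold change of 2.50 ± 0.27 (adjusted p = 6.21e-06) under PAM3 and a log2 fold change of -0.78 ± 0.26 (adjusted p = 0.0368) at rest, and the call at rest was lost without replicate 3 of the 25HC-treated group (adjusted p = 0.146). PAM3 moved Tfec in opposite directions: a log2 fold change of 1.97 ± 0.27 (adjusted p = 1.67e-05) in 25HC-treated cells, a log2 fold change of -1.32 ± 0.26 (adjusted p = 0.000449) in untreated B6 cells and a log2 fold change of -2.72 ± 0.29 (adjusted p = 1.48e-06) in Ch25h-/- cells.

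Mitf was 149, 129 and 133 CPM with 25HC and PAM3, against 114, 75.5 and 72.9 CPM with PAM3 alone, with a log2 fold change of 0.65 ± 0.18 (adjusted p = 0.00775). Its level at rest was 82.0, 83.1 and 81.2 CPM with 25HC and 115, 92.7 and 117 CPM without it, with a log2 fold change of -0.40 ± 0.18 (adjusted p = 0.111). With the animal as a block the adjusted p at rest was 0.0327. PAM3 raised it in 25HC-treated cells with a log2 fold change of 0.74 ± 0.18 (adjusted p = 0.00237), and in untreated cells the difference was a log2 fold change of -0.31 ± 0.18 (adjusted p = 0.142), with 0.0380 as the adjusted p under the block.

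Tfeb was 20.6, 28.9 and 18.4 CPM with 25HC and PAM3, 23.2, 39.2 and 36.2 CPM with PAM3 alone, 37.6, 41.7 and 39.7 CPM with 25HC at rest and 26.6, 47.4 and 32.0 CPM in untreated cells at rest. Replicate 2 was the highest library of each of these groups. With 25HC the difference was a log2 fold change of -0.54 ± 0.23 (adjusted p = 0.0656) under PAM3, with 0.0151 as the adjusted p with the animal as a block, and a log2 fold change of 0.17 ± 0.23 (adjusted p = 0.619) at rest. With PAM3 it was a log2 fold change of -0.10 ± 0.23 (adjusted p = 0.706) in untreated B6 cells and a log2 fold change of -0.81 ± 0.23 (adjusted p = 0.00686) in 25HC-treated cells. Tfe3 was 219.7, 226 and 207 CPM with 25HC and PAM3, against 206, 227 and 220.4 CPM with PAM3 alone, and these levels overlapped, with a log2 fold change of -0.0025 ± 0.10 (adjusted p = 0.987). At rest Tfe3 was 201, 168 and 186 CPM with 25HC and 143, 177 and 149 CPM without it, with a log2 fold change of 0.24 ± 0.10 (adjusted p = 0.0992). PAM3 raised it in untreated B6 cells with a log2 fold change of 0.48 ± 0.10 (adjusted p = 0.000958). Of the summed TPM of the family, Tfec took 15.7% ± 2.1 with 25HC and PAM3, against 3.63% ± 1.62 with PAM3 alone, and Tfe3 took 39.9% ± 2.0, against 52.3% ± 4.4 (SD, n = 3 each).

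All 3 Rag genes changed with 25HC in at least 1 state, in different ways. Rraga, for RagA, was 110.2, 109 and 109 CPM with 25HC and PAM3, against 66.9, 59.1 and 71.6 CPM with PAM3 alone, with a log2 fold change of 0.73 ± 0.12 (adjusted p = 0.000124). Without PAM3 it was 126, 93.5 and 113 CPM with 25HC and 72.7, 54.7 and 64.7 CPM without it, with a log2 fold change of 0.79 ± 0.12 (adjusted p = 0.000378). The interaction of 25HC with PAM3 was -0.05 ± 0.16 for this gene (adjusted p = 0.829).

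Rragd, for RagD (chromosome 4, 32983037 to 33022180, plus strand, GRCm38), was 11.2, 8.77 and 9.46 CPM with 25HC and PAM3, against 1.86, 1.73 and 1.43 CPM with PAM3 alone. At rest it was 8.95, 18.2 and 10.2 CPM with 25HC and 19.2, 23.2 and 16.9 CPM without it. In Ch25h-/- cells it was 1.05, 0.697 and 0.883 CPM with PAM3 and 19.6, 19.4 and 16.0 CPM at rest. All 6 libraries with PAM3 and no 25HC were below 2 CPM, and the 3 with 25HC and PAM3 lay below every library at rest that had received no 25HC. The difference with 25HC was a log2 fold change of 2.54 ± 0.24 (adjusted p = 2.06e-06) under PAM3 and a log2 fold change of -0.67 ± 0.22 (adjusted p = 0.0375) at rest. The value at rest was -1.05 without replicate 2 of the 25HC-treated group, which overlapped the untreated libraries, and its adjusted p was 0.180 without replicate 1. PAM3 lowered Rragd with a log2 fold change of -3.55 ± 0.25 (adjusted p = 2.89e-08) in untreated B6 cells and a log2 fold change of -4.39 ± 0.28 (adjusted p = 1.19e-08) in Ch25h-/- cells, and in 25HC-treated cells the difference was a log2 fold change of -0.35 ± 0.22 (adjusted p = 0.195). Rragc, for RagC, fell with PAM3 in untreated B6 cells with a log2 fold change of -0.63 ± 0.09 (adjusted p = 3.59e-05) and was lower with 25HC at rest with a log2 fold change of -0.33 ± 0.09 (adjusted p = 0.0181). Of the summed TPM of Rragc and Rragd, Rragd took 3.31% ± 0.30 with 25HC and PAM3, against 0.575% ± 0.101 with PAM3 alone. At rest its share was 3.28% ± 0.92 with 25HC and 4.19% ± 0.70 without it (SD, n = 3 each).

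All 3 genes of the folliculin complex fell with PAM3 in untreated B6 and in Ch25h-/- cells and were lower with 25HC at rest, and Fnip1 and Fnip2 were higher with 25HC under PAM3. In 25HC-treated cells PAM3 raised Fnip1, with a log2 fold change of 0.57 ± 0.17 (adjusted p = 0.0104), while Fnip2 and Flcn did not pass the test. Fnip1 was 175, 138 and 167 CPM with 25HC and PAM3, against 114, 79.3 and 61.9 CPM with PAM3 alone, with a log2 fold change of 0.91 ± 0.17 (adjusted p = 0.000561). Its level at rest was 98.5, 125 and 101 CPM with 25HC and 158, 168 and 188 CPM without it, with a log2 fold change of -0.66 ± 0.17 (adjusted p = 0.0115). The groups did not overlap in either state, and they stood in opposite order. The call of Fnip1 at rest was lost without replicate 1 of the 25HC-treated group (adjusted p = 0.0601) and without its replicate 3 (adjusted p = 0.0560). Fnip2 was 267, 193 and 235 CPM with 25HC and PAM3, against 184, 153 and 138 CPM with PAM3 alone, with a log2 fold change of 0.55 ± 0.18 (adjusted p = 0.0236). At rest Fnip2 was 163, 250.3 and 169 CPM with 25HC and 344, 349 and 372 CPM without it, with a log2 fold change of -0.87 ± 0.18 (adjusted p = 0.00362). The call of Fnip2 under PAM3 was lost without replicate 1 of the 25HC-treated group (adjusted p = 0.107). Flcn, for folliculin itself, was 57.1, 83.6 and 54.4 CPM with 25HC at rest, against 92.2, 135 and 100.2 CPM without it, with a log2 fold change of -0.75 ± 0.18 (adjusted p = 0.00694). Under PAM3 Flcn was 53.6, 50.7 and 44.0 CPM with 25HC and 53.4, 59.1 and 54.9 CPM without it, with a log2 fold change of -0.18 ± 0.18 (adjusted p = 0.437). The PAM3 responses in untreated B6 cells were -0.97, -1.01 and -1.16 for Flcn, Fnip1 and Fnip2 on the log2 scale, and all 3 passed the test.

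**Figure D3:**
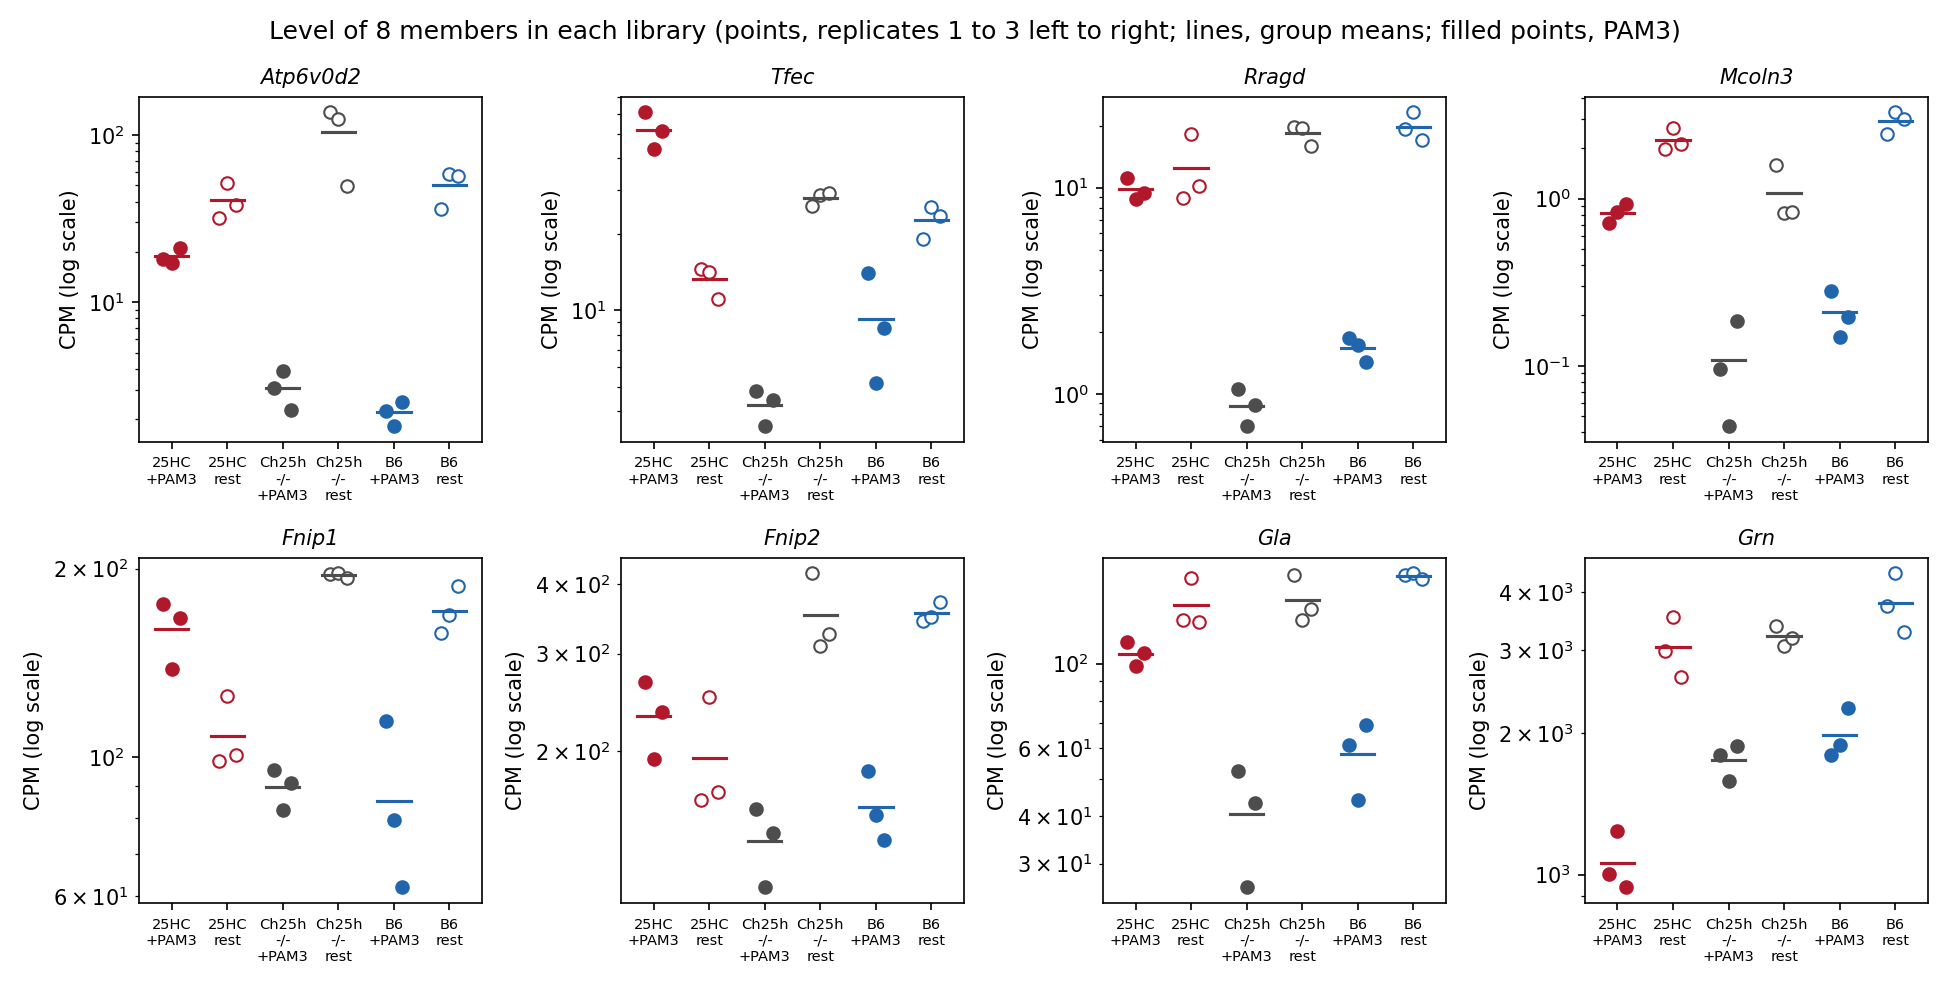
CPM on a log axis of 8 members (panels) in each of the 18 libraries, as points by group with the group mean as a line. In every panel but that of Grn the 25HC-treated libraries with PAM3 lie above all libraries with PAM3 and no 25HC. In that of Grn they lie below.

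**Figure D4:**
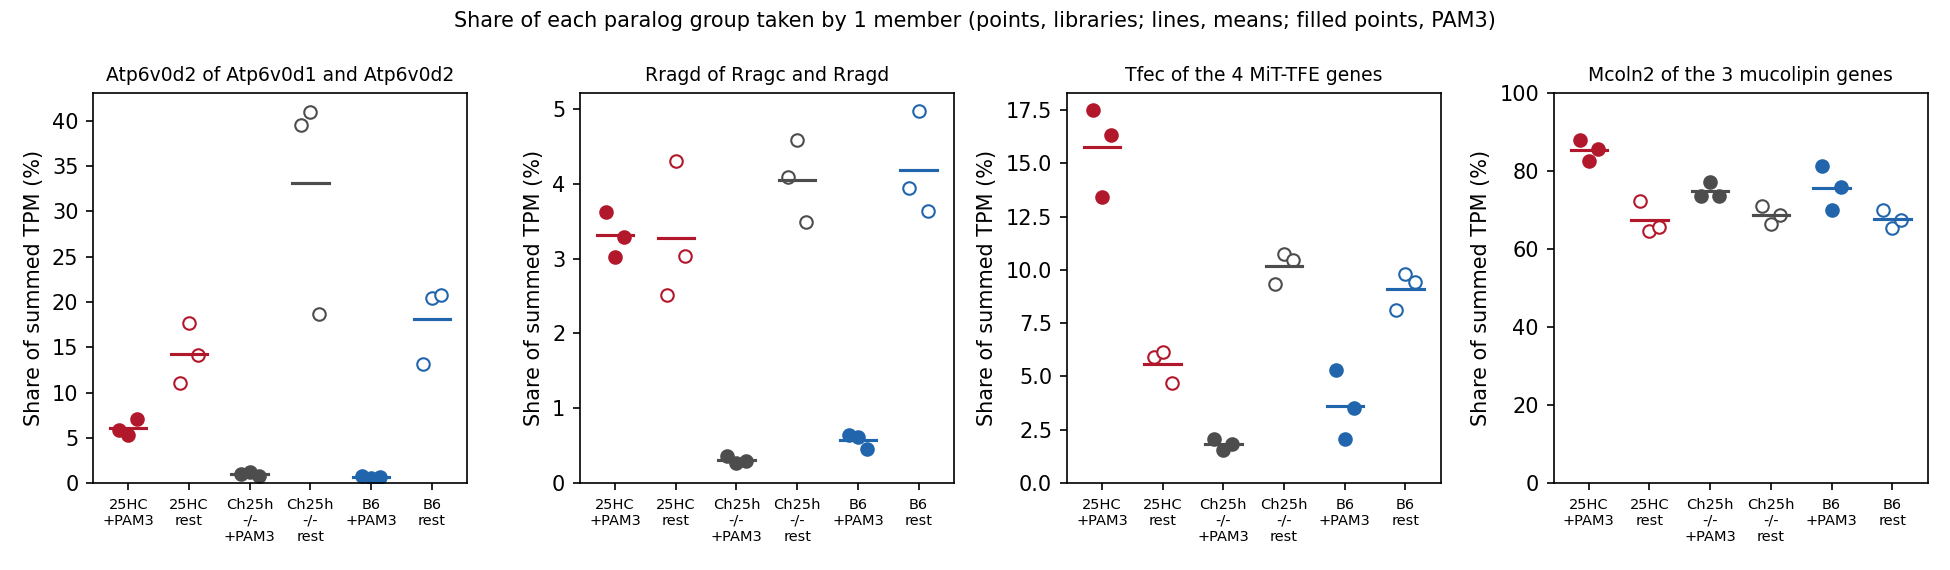
Share (percent of summed TPM) that 1 member takes of its paralog group in each library, with group means as lines. With PAM3 the share of Tfec is 15.7% with 25HC and 3.63% without it, and that of Atp6v0d2 is 6.11% with 25HC and 0.672% without it.

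Whether the PAM3 response differed with 25HC was tested as an interaction. Of the 36 members 13 passed, against a background of 28.3%, with 10 positive and 3 negative (backgrounds 12.5% and 15.8%). The largest were 3.43 ± 0.45 for Atp6v0d2 (adjusted p = 0.000262), 3.29 ± 0.37 for Tfec (adjusted p = 0.00011) and 3.21 ± 0.33 for Rragd (adjusted p = 6.53e-05). Mcoln3 followed with 2.42 ± 0.43 (adjusted p = 0.00150), Fnip1 with 1.58 ± 0.24 (adjusted p = 0.000723) and Fnip2 with 1.42 ± 0.26 (adjusted p = 0.00180). These values are differences of log2 fold changes, and a positive one means that the response to PAM3 was higher in 25HC-treated cells. For Atp6v0d2, Mcoln3, Rragd and Gla the response was less negative in 25HC-treated cells, and for Tfec and Fnip1 it changed direction. Without replicate 2 of every group 21 members passed, and all 13 were among them. With the animal as a block Grn, Tfeb and Flcn also passed, with adjusted p of 0.0342, 0.0243 and 0.0272.

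Cells of Ch25h-/- mice were compared with B6 cells that received no 25HC. By edgeR's quasi-likelihood test 0 of the 36 members changed at rest and 0 with PAM3, against backgrounds of 0.00785% and 0.173% of the 12741 tested genes (with PAM3 0.0471% higher and 0.126% lower). At an unadjusted p below 0.05 there were 5 members at rest and 8 with PAM3, and DESeq2 called 1 at rest (Mcoln3) and 3 with PAM3 (Atp6v0b, Atp6v0c and Tfec). With the mouse number as a block, which paired the genotypes at rest, 0 members and 14 of all genes were called at rest, against 1 of all genes without the block. Tfec with PAM3 was 4.82, 3.48 and 4.41 CPM in Ch25h-/- cells, against 14.02, 5.18 and 8.52 CPM in B6 cells, with a log2 fold change of -1.11 ± 0.28 (adjusted p = 0.0928) by edgeR and 0.0123 as the adjusted p by DESeq2. All 3 Ch25h-/- libraries were below all 3 B6 libraries. Atp6v0d2 at rest was 137, 125 and 49.5 CPM in Ch25h-/- cells, against 36.3, 58.6 and 56.5 CPM in B6 cells, and these overlapped, with a log2 fold change of 1.04 ± 0.30 (adjusted p = 0.663). Mcoln3 at rest was 1.58, 0.823 and 0.834 CPM, against 2.44, 3.29 and 2.99 CPM, with a log2 fold change of -1.41 ± 0.30 (adjusted p = 0.328). Ch25h in the untreated B6 cells was 20.4, 3.16 and 10.2 CPM at rest and 3.55, 1.66 and 2.14 CPM with PAM3. Neutrophil markers were higher in the Ch25h-/- libraries at rest, as given above. With PAM3 their sum was 12.6, 24.4 and 11.3 CPM in Ch25h-/- cells, against 4.93, 6.67 and 9.48 CPM in untreated B6 cells. The part of these markers in the values of both states was not tested. The interaction of genotype with PAM3 passed for 0 members (background 0%), with 2 members at an unadjusted p below 0.05 and 0 by DESeq2.

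Other lysosomal genes were read from lists that hold none of the 36, and each count stands beside the share over all tested genes, which with 25HC under PAM3 was 23.6% lower and 21.5% higher. Over all genes the median log2 fold change there was -0.04. Of 30 other lysosomal hydrolases, 18 fell and 0 rose with 25HC under PAM3, which is 60% lower, with a median log2 fold change of -0.42. Manba, for β-mannosidase, was 23.8 ± 1.8 CPM with 25HC and 55.0 ± 2.9 CPM without it (log2 fold change -1.21 ± 0.13), and Asah1, for acid ceramidase, was 286 ± 9.0 CPM and 506 ± 48 CPM (-0.83 ± 0.11). At rest 12 of the 30 fell with 25HC (40%, background 11.4%) and 1 rose, Galns, at 83.1 ± 6.7 CPM with 25HC and 63.1 ± 5.8 CPM without it. Of 16 lysosomal proteases, 4 fell (25%) and 2 rose (12.5%) with 25HC under PAM3, with a median of -0.32, so the share that fell was near the background and the share that rose below it. Ctsb, for cathepsin B, was 4026 ± 417 CPM with 25HC and 6476 ± 796 CPM without it, and Ctsl, for cathepsin L, was 857 ± 112 CPM and 549.6 ± 76.4 CPM. Ctsl was the one protease that passed the interaction, at 1.23 ± 0.22 (adjusted p = 0.00141), and with 25HC at rest it was lower, with a log2 fold change of -0.59 ± 0.15. Of 24 genes of the lysosomal membrane and transport, 8 fell (33.3%) and 0 rose with 25HC under PAM3, with a median of -0.27. Among them Tpcn1, an endolysosomal cation channel, was 25.6 ± 6.2 CPM with 25HC and 119 ± 26 CPM without it. At rest 10 of the 24 fell with 25HC (41.7%, background 11.4%) and 0 rose (background 14.8%). Of the 9 other V-ATPase genes only 3 were abundant enough to test, and 2 of these fell with 25HC under PAM3: Tcirg1, for the a3 subunit, at 343 ± 40 CPM with 25HC and 475 ± 21 CPM without it, and Atp6v0a2 at 68.3 ± 0.64 CPM and 81.1 ± 3.0 CPM (SD, n = 3 in each group above). Atp6v0a2, for the a2 subunit, was higher with 25HC at rest, at 45.4 ± 5.4 CPM with 25HC and 32.3 ± 1.8 CPM without it, with a log2 fold change of 0.49 ± 0.09 (adjusted p = 0.00161), and its interaction was -0.74 ± 0.13 (adjusted p = 0.00130).

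Of 27 genes of Ragulator, GATOR and mTORC1, 3 rose (11.1%, background 21.5%) and 9 fell (33.3%, background 23.6%) with 25HC under PAM3, and the median of -0.04 was that of all genes. Sesn1, for the leucine sensor sestrin 1, was 14.9 ± 3.0 CPM with 25HC and 119.6 ± 27.5 CPM without it under PAM3, with a log2 fold change of -3.01 ± 0.38 (adjusted p = 2.08e-05). At rest Sesn1 was 83.3 ± 55.5 CPM with 25HC and 380.5 ± 116 CPM without it, with -2.19 ± 0.37 (adjusted p = 0.000862). Sec13, shared by the GATOR2 complex and the COPII coat, was 164 ± 7.5 CPM with 25HC and 113 ± 15 CPM without it under PAM3, and it was also higher with 25HC at rest. Lamtor4, a Ragulator subunit, was 27.2 ± 5.0 CPM with 25HC and 53.7 ± 9.4 CPM without it under PAM3. Of 16 tested autophagy genes with reported control by TFEB, 4 rose (25%) and 2 fell (12.5%) with 25HC under PAM3, with a median of 0.15. Sqstm1, for the autophagy receptor p62, was 3219.9 ± 295 CPM with 25HC and 559.8 ± 96.0 CPM without it, with a log2 fold change of 2.52 ± 0.19 (adjusted p = 4.04e-07). At rest it was 1188 ± 247 CPM with 25HC and 571 ± 76 CPM without it, with 1.06 ± 0.19 (adjusted p = 0.00115), and the interaction was 1.47 ± 0.26 (adjusted p = 0.00152). Atg9b, a paralog of the autophagy scramblase ATG9A, was 0.635 ± 0.150 CPM with 25HC and 6.71 ± 0.81 CPM without it under PAM3 (SD, n = 3 in each group above). PAM3 in untreated B6 cells lowered 11 of the 16 proteases, 18 of the 30 other hydrolases and 13 of the 24 membrane genes, and raised 2, 3 and 3 of them, against backgrounds of 30.8% lower and 31.3% higher. Cd68, a macrophage lysosomal glycoprotein that is also among the macrophage markers, was 363 ± 67 CPM with PAM3 and 1726 ± 125 CPM at rest, and Gpnmb, a transmembrane glycoprotein of macrophages, was 406 ± 86 CPM and 2714 ± 575 CPM (SD, n = 3 each).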

How the data were processed

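The deposited table holds raw read counts per gene, made by the authors, for 30530 genes, with a column for each of the 18 libraries. The submitters' processing notes name FastQC 0.11.9 for read quality, GSNAP for alignment to GRCm38 (mm10), featureCounts of Subread 1.5.2 for counting and edgeR 3.26.8. The libraries were stranded, per the labels' protocols. Whether counting used strand, how multiply aligned reads were counted and which gene annotation served are not given in the sources used.

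These counts were fitted with edgeR 4.0.16 under R 4.3.3 (DESeq2 1.42.0 as the alternative). The filter was filterByExpr on the 6 groups, the scaling TMM, and 1 model gave every group its own mean. That model held no term for the mouse, so it treated libraries of the same animal as independent. The mouse number entered only as an alternative. Robust quasi-likelihood F tests, two-sided, were made for 9 comparisons, and p-values were adjusted by Benjamini-Hochberg over 12741 genes, with a threshold of 0.05. The ± after a log2 fold change is a standard error, obtained from the fold change and its F statistic. CPM are relative to TMM-scaled totals, and TPM used the merged exon lengths of GENCODE M21, which held 30118 of the identifiers. The biological coefficient of variation was 0.192, with 12 residual degrees of freedom. Totals of 14040513 to 150440297 counts make low genes more precise in the deeper libraries. The fit was also run on simulated counts, with the same dispersion for every gene and no effect shared by libraries of the same number. That run therefore does not show the error rate in these data. Figures were drawn with matplotlib 3.10.9 under Python 3.11.15.

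Members and lists were chosen with earlier results of these data known. Values in every library are given for the 6 called members of largest change with at least 1 CPM in each comparison, and for the MiT-TFE factors and mucolipins in 3 comparisons. From each other list up to 2 called genes per direction with the smallest adjusted p were taken, and the text names a part of these. The mouse number pairs libraries within a genotype because the labels give it as the animal, and deviations of libraries with the same number correlated with r of -0.162 to 0.581. Between genotypes at rest, r was 0.574, 0.705 and 0.327, all above 0.1, so the number was taken to pair the libraries there as well. Those libraries come from different mice, and the labels do not state that numbers pair across genotypes. The pairing there is thus an assumption that the correlations do not show to be right. The alternatives were size factors or the Wald test of DESeq2, a filter at 1 CPM or none, a fit of only the compared groups, the mouse number as a block, libraries thinned to the smallest total, and leaving out replicate 2 of every group or each library in turn. Raw reads were not analysed here.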

Additional observations from a re-analysis of the deposited data

Results flagged for a closer look

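The PAM3 response differed between 25HC-treated and untreated B6 cells, by the interaction term in edgeR's quasi-likelihood test with Benjamini-Hochberg adjustment over all tested genes, for 13 of the 36 members. The differences in log2 response were positive for Atp6v0d2 (3.43), Tfec (3.29), Rragd (3.21), Mcoln3 (2.42), Fnip1 (1.58), Fnip2 (1.42), Gla (1.12), Mitf (1.05), Mcoln2 (0.94) and Atp6ap2 (0.67). They were negative for Atp6v1f (-0.66), Atp6v0e (-0.63) and Atp6v0c (-0.52). Atp6v0d2, Atp6v0e, Gla, Mcoln3, Tfec, Mitf, Rragd, Fnip1 and Fnip2 remained called in all 20 alternative settings. The calls of Atp6ap2, Atp6v0c, Atp6v1f and Mcoln2 were each lost in at least 1 of them.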

How the results depend on the processing

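Counts of called members that moved by over 1.5 times were few. With 25HC at rest 12 members were called, 7 with only the groups compared in the fit, and 3 to 12 without one library. For Ch25h-/- with PAM3, where 0 were called, the replicate block on the mouse number gave 2 (Atp6v0c and Tfec), DESeq2 gave 3, leaving out replicate 2 of every group gave 1 (Tfec), and leaving out one library gave 0 to 1. For Ch25h-/- at rest DESeq2 gave 1. Across genotypes with PAM3 the same-number libraries correlated with r = 0.322, 0.459 and 0.0949, which is not above 0.1 for every number, so the samples there share only a number. For the 25HC by PAM3 interaction 13 were called, and 21 without replicate 2 of every group. Within a genotype the block also moved the calls of Atp6v1c1 (adjusted p = 0.0459, gained) and Atp6v1d (0.0538, lost) with PAM3 in Ch25h-/- cells and of Flcn (0.0232, gained) with PAM3 in 25HC-treated cells, beside those given with the results, and it changed no other call. Without one library the ranges were 13 to 17 with 25HC under PAM3, 22 to 26 with PAM3 in untreated B6 cells, 18 to 21 in 25HC-treated cells, 23 to 26 in Ch25h-/- cells and 10 to 15 for the interaction.

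Directions of log2 fold changes reversed only where the value was near 0. For Tfe3 with 25HC under PAM3 (-0.0025) the value was 0.000725 with DESeq2 size factors, 0.00518 without a filter, 0.0143 with only the groups compared, 0.0021 by DESeq2 and -0.0397 to 0.0353 without one library. For Tfeb with PAM3 in untreated B6 cells (-0.10) it was 0.0155 without replicate 2 of every group, and -0.27 to 0.17 without one library. For Tfeb with 25HC at rest it was -0.000473 to 0.44 without one library. The cause was not tested. In all, 1692 of the member results under other settings kept direction and side of the threshold, 126 lost it, 13 gained it and 11 reversed. Over all genes, 25HC at rest called 3334, and 5105 without replicate 2 of every group. Ch25h-/- with PAM3 called 22, against 368 under the block, 384 without replicate 2 of every group, 388 by DESeq2 and 0 with only the groups compared. Ch25h-/- at rest called 1, against 14 under the block and 21 by DESeq2. Depth limits Mcoln3, which had 1 to 4 counts in Ch25h-/- libraries with PAM3.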
